A study of Mus musculus with 8 samples.

Results

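Detoxification and redox enzymes were examined in newborn mouse epidermis labelled as knockout for the insulin and IGF-1 receptors, and in wild-type controls. The members were 33 genes, measured by 40 probe sets, out of 1396 genes and 1804 probe sets that carry a single symbol in the authors' deposited table. They were taken by name, as catalase or as a symbol of the families Cyp, Gst, Aldh, Adh, Akr, Ugt, Sult, Ces, Ephx, Gpx, Nqo, Prdx, Txn, Hsd, Fmo, Rdh, Dhrs or Car, and 5 further probe sets of these families with several symbols were left out. No single-symbol entry came from Ugt, Sult, Ces, Nqo, Prdx or Rdh.

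The knockout group, labelled IR-/-, IGF-1R-/- and called dKO, and the wild-type control group each had 4 arrays, all from newborn C57Bl/6 mice. Epidermis had been separated from dermis before RNA extraction, and cRNA carrying biotin was measured on Affymetrix 430 2.0 arrays for the mouse. Cells in which the receptors were deleted, the means of deletion and the number of animals behind an array were not stated in the labels used, and the spread between arrays may be partly technical. Insulin and IGF-1 control growth and metabolism through these receptors, and the comparison asks which transcripts differ between the labelled knockout and the controls.

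The authors' deposited table, and so the members, had been selected on fold and p-value in this same comparison. Its entries had a fold of at least 1.5 and an unadjusted p-value of at most 0.0499, and in the authors' deposited table the members closest to the fold limit were Dhrs4 at 1.51, Cyp51 at 1.52 and Hsdl1 at 1.53. Genes just outside that limit have no name here. All differences between dKO and control below are therefore descriptions of genes already chosen for differing, without a test, and a gene that is not named was not shown to be unchanged.

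Detoxifying enzymes work in successive steps. Cytochromes P450 and flavin monooxygenases add oxygen to lipophilic compounds, dehydrogenases and reductases convert alcohols, aldehydes, retinoids and steroids, and transferases such as the glutathione S-transferases attach a water-soluble group. Epoxide hydrolases open reactive epoxides, and catalase and the glutathione peroxidases remove peroxides. In skin the same families also handle retinoids, steroids, sebum lipids and the lipids of the barrier.

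Several members are chromosomal neighbours in the RefSeq gene table of GRCm38.p6. Adh7 and Adh1 follow each other with 0 protein-coding genes between them, yet their transcripts lay on opposite sides of control, and the bases before their starts are shown for that reason. Car6 and Cyp2f2 are shown as the members with the most negative differences that had an entry in the promoter table. Each line gives 250 bases before the start, 5′ to 3′, from RefSeq on GRCm38.p6, with capitals for a match to a searched motif.
Adh7, chr3:138217523-138217772, plus strand: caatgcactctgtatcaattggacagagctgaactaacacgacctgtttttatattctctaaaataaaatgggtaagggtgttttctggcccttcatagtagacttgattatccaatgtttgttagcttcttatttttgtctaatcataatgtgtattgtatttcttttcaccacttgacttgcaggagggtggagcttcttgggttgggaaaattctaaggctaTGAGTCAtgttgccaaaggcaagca
Adh1, chr3:138277335-138277584, plus strand: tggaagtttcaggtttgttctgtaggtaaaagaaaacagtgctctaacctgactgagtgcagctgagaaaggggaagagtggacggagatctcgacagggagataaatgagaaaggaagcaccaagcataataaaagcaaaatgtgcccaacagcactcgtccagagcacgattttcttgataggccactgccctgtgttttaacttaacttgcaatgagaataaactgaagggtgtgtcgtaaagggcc
Car6, chr4:150201136-150201385, minus strand: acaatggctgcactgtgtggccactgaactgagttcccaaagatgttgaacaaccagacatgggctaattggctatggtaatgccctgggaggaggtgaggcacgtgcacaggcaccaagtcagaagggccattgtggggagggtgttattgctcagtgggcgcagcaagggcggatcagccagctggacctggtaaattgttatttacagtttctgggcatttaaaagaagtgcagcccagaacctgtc
Cyp2f2, chr7:27119705-27119954, plus strand: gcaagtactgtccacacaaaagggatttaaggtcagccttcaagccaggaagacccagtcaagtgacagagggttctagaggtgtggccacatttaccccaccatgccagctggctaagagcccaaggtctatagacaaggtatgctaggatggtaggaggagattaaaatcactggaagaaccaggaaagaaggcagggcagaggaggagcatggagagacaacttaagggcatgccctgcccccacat

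The motifs searched on both strands were TGACNNNGC, the core of the antioxidant response element, GCGTG, the core of the dioxin response element, TGANTCA for AP-1 and TGTTTAC for FoxO factors. The capitals in Adh7 are an AP-1 match that begins 25 bases before the start, and the other 3 windows held none of the 4 letter patterns. Of the 33 members 26 matched the promoter table, and Cyp17a1, Cyp2g1, Fmo1, Adh6b, Aldh3a1, Hsd11b2 and Hsd17b14 did not. The antioxidant core was found in 1 of the 26 members (3.85%; Hsdl1), against 11.5% of the 27025 genes in the table. The dioxin core was found in 5 (19.2%; Cyp51, Cyp2b10, Hsdl1, Cyp1a1 and Gsta2), against 30.9% of all genes. AP-1 letters were found in 3 (11.5%; Adh7, Cyp4b1 and Aldh1a1), against 7.82%, and FoxO letters in 1 (3.85%; Fmo2), against 3.54%. The AP-1 and antioxidant patterns both can begin with the letters TGA, and no window of these members held both.

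Signals are given as array units on a linear scale. Median signals lay between 40.7 and 47.4 units in dKO and between 46.3 and 51.7 units in controls. Insr, the insulin receptor, read 71.9, 87.6, 50.7 and 80.9 units in dKO replicates 1 to 4, against 302, 309.6, 227 and 176 units in control replicates 1 to 4. Igf1r, the IGF-1 receptor, read 315 to 369 units in dKO and 456 to 707 units in controls in its brightest probe set. The remaining probe sets but the dimmest were also lower without overlap, at 157 to 209 and 157 to 180.5 units in dKO. Their controls read 227 to 332 and 274 to 365 units. The dimmest ran the other way, at 125 to 175 units in dKO and 57.2 to 95.5 units in controls. Defining keratins of the epidermis such as Krt5 and Krt14 have no name here, and 2 of 6 keratinocyte markers, Krt15 and Krt77, were named. These ran in opposite directions, with Krt15 at 3591 ± 903 units in dKO and 11326 ± 2247 units in controls and Krt77 at 5914 ± 2568 units in dKO and 1179 ± 354 units in controls (SD, n = 4 each), and their summed signal was 5351 to 12492 units in dKO and 9707 to 14605 units in controls. As a sign of RNA quality, the 3′ over 5′ signal of control transcripts (log2) was 0.372 to 0.586 in dKO and 0.512 to 0.767 in controls for Actb, and -0.479 to -0.430 in dKO and -0.546 to -0.270 in controls for Gapdh, and its part in the results was not tested.

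Most members were lower in dKO. By the brightest probe set of each gene, 24 of 33 were lower and 9 higher, with a median log2 difference of -0.89 (dKO minus control), against -0.068 over all 45032 tested probe sets. The other 1363 named genes had 769 lower and 594 higher, with a median of -0.58. In 20 members the dKO and control arrays did not overlap, 13 lower and 7 higher, where 9.37% of all probe sets did not overlap, 5.93% lower and 3.44% higher. The fit across all probe sets (limma, Benjamini-Hochberg adjusted p under 0.05) was passed by 14 members, 11 lower and 3 higher, beside 2.25% of all probe sets, 1.25% lower and 0.993% higher. As a share, 42.4% of members passed, against 42.1% of the other named genes, which were filtered alike, and 60.6% of members did not overlap, against 68.5% of those genes. Since the table had been filtered on the same contrast, nothing is read from these counts. Without dKO replicate 3 the lower members past the limit numbered 6, without control replicate 1 they numbered 4, and without control replicate 2 or 3 they numbered 5. The higher ones numbered 1 without dKO replicate 2 or control replicate 1, 2 or 3.

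**Figure D1:**
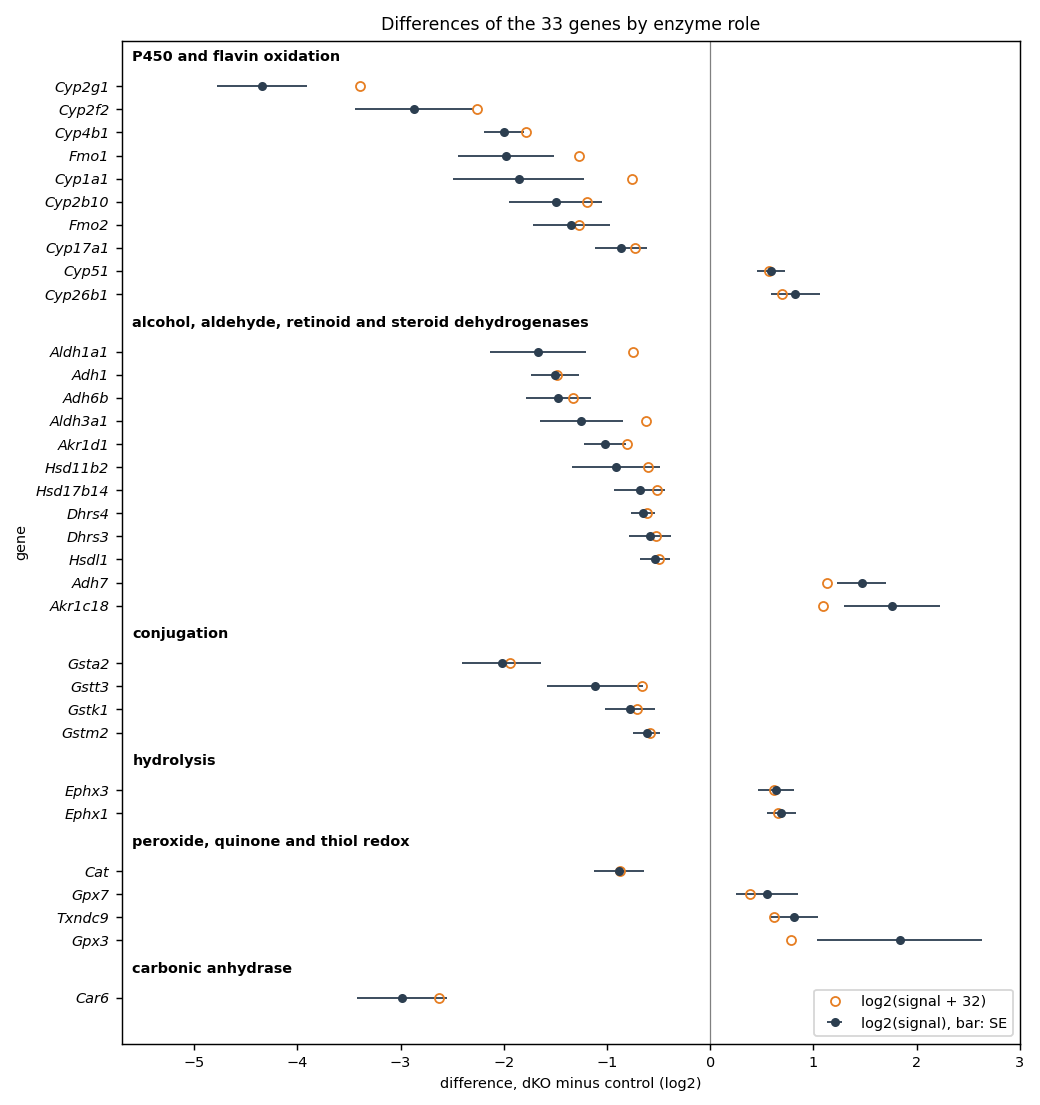
Log2 difference, dKO minus control, for the 33 genes by enzyme role. Filled points with SE bars (limma, 4 arrays a group) are on the log2(signal) scale and open circles on the log2(signal + 32) scale. Of the 33 genes, 24 lie left of 0 and 9 right of it on both scales, and the dim genes Cyp1a1, Aldh1a1 and Gpx3 move toward 0 with the offset.

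Because dim signals inflate a log ratio, each difference is also given with 32 units added to every signal. All 33 members had signals above 0 on all arrays, and 29 lay at or above the median level of all probe sets, the exceptions being Cyp1a1, Aldh1a1, Aldh3a1 and Gpx3. On the offset scale the median over the members was -0.66.

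Among the oxidising enzymes 8 of 10 were lower in dKO. Cyp2g1, a P450 best known from the olfactory mucosa, read 24.8, 35.2, 26.3 and 39.0 units in dKO replicates 1 to 4, against 981, 294, 353 and 1501 units in control replicates 1 to 4. The groups lay far apart, and the controls themselves fell into a bright pair (1 and 4) and a dimmer pair (2 and 3). Its log2 difference of -4.34 (SE 0.44), or -3.40 with the offset, was the largest among the members.

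Cyp2f2, known in mouse lung for activating naphthalene, read 14.9, 129, 64.5 and 175 units in dKO replicates 1 to 4, against 542.5, 416.5, 571 and 478 units in control replicates 1 to 4. Every dKO array lay below every control, and the dKO arrays differed 11.7-fold among themselves, with replicate 1 lowest. The log2 difference was -2.87 (SE 0.57), or -2.26 with the offset.

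Cyp4b1, a P450 that oxidises fatty acids and some toxins, read 171, 165, 91.2 and 172 units in dKO replicates 1 to 4, against 624, 605, 546.5 and 554 units in control replicates 1 to 4. The controls agreed within 1.14-fold, and dKO replicate 3 stood below the other 3 dKO arrays. The log2 difference was -2.00 (SE 0.19), or -1.78 with the offset.

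Both flavin monooxygenases among the members were lower, and both had 1 control that overlapped with dKO. Fmo1 read 36.4, 62.1, 14.4 and 28.8 units in dKO replicates 1 to 4, against 135, 168, 180.1 and 55.7 units in control replicates 1 to 4. Fmo2, its direct chromosomal neighbour, read 210.3 to 477 units in dKO, against 335 units in control replicate 4 and 907 to 1426 units in the other controls. Their log2 differences were -1.98 (SE 0.47) for Fmo1 and -1.35 (SE 0.37) for Fmo2, and the remaining pair of Fmo2 probe sets gave -1.33 and -1.23.

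The other P450 genes split by direction. Cyp2b10, which phenobarbital induces in liver, read 302 units in dKO replicate 1 and 38.7 to 111 units in the other dKO arrays, against 256 to 337 units in controls. In all 3 Cyp2b10 probe sets dKO replicate 1 lay within the control range. Its log2 differences were -1.50 (SE 0.45), -1.59 and -1.90, and 2 of these probe sets carry the Affymetrix suffix for probes shared between transcripts of related genes. Cyp17a1, an enzyme of androgen synthesis, read 102 to 197 units in dKO and 174.5 to 341.5 units in controls. Cyp1a1, the classical target of the aryl hydrocarbon receptor, was dim, at 3.4 to 25.5 units in dKO and 23.7 to 65.2 units in controls, and its log2 difference of -1.86 shrank to -0.76 with the offset.

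The 2 higher P450 members were Cyp26b1 and Cyp51. Cyp26b1, which breaks down retinoic acid, read 244 to 274.5 units in dKO and 91.7 to 224 units in controls. Its dKO arrays agreed within 1.13-fold, whereas the controls differed 2.45-fold. Cyp51, of cholesterol synthesis, read 1218 to 1621 units in dKO and 829 to 1178 units in controls, a log2 difference of 0.59 (SE 0.13).

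**Figure D2:**
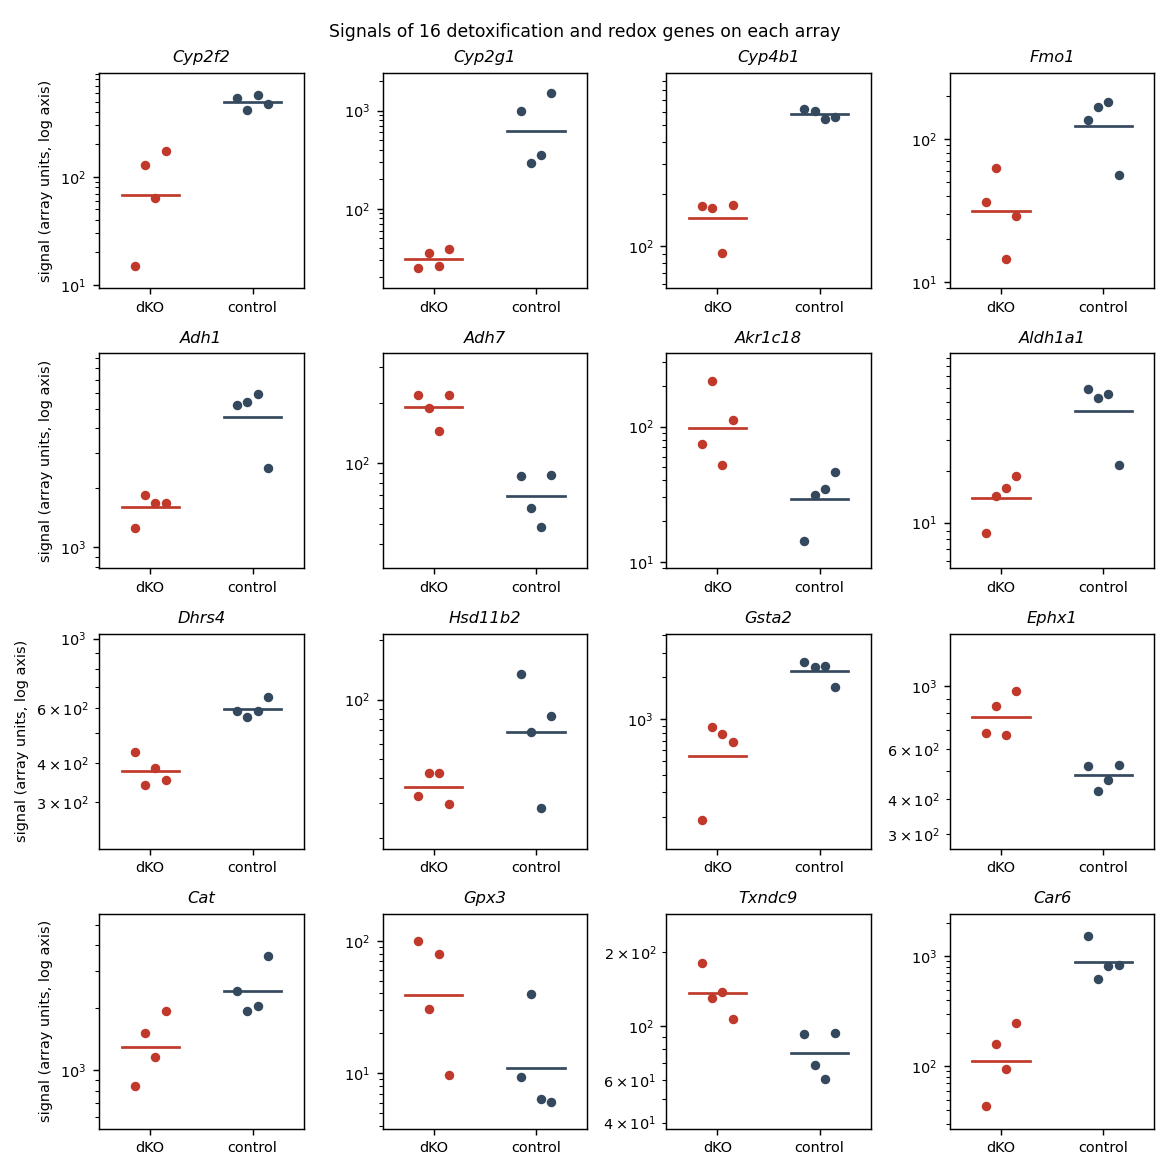
Signal on each array (array units, log axis) for the 16 genes given array by array, with dKO left and control right, points in the order of replicates 1 to 4 and lines at the geometric mean. The groups overlap for Fmo1, Hsd11b2 and Gpx3 and are apart for the other 13, with Cyp2g1 at 24.8 to 39.0 units in dKO and 294 to 1501 units in controls.

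Of the 12 members grouped by name as dehydrogenases and reductases, 10 were lower in dKO and 2 higher. Adh1, the class I alcohol dehydrogenase that oxidises ethanol and retinol, read 1254, 1835, 1681 and 1665 units in dKO replicates 1 to 4, against 5188, 5399, 5931 and 2504 units in control replicates 1 to 4. All dKO arrays lay below all controls, but control replicate 4 was well below the other controls. The log2 difference was -1.50 (SE 0.23), and -1.49 with the offset.

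Adh7, the class IV enzyme that oxidises retinol in epithelia, differed in the opposite direction. It read 219, 188, 145 and 219 units in dKO replicates 1 to 4, against 87.0, 60.2, 48.2 and 87.9 units in control replicates 1 to 4. The groups did not overlap in this probe set or in the dimmer one, with log2 differences of 1.47 (SE 0.24) and 1.26 (SE 0.30). Adh6b, separated from Adh1 by 1 protein-coding gene, read 444 units in dKO replicate 1 and 162 to 167 units in the other dKO arrays, against 382 to 832 units in controls, a log2 difference of -1.47 (SE 0.32).

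The 3 Cyp2 members also lie close together, with 10 protein-coding genes between Cyp2b10 and Cyp2g1 and 3 between Cyp2g1 and Cyp2f2, and all 3 were lower in dKO. Neighbours did not move together on every array. In dKO replicate 1 Cyp2b10 was at the control level while Cyp2f2 was at its lowest, and Adh6b was high there while Adh1 was low.

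**Figure D3:**
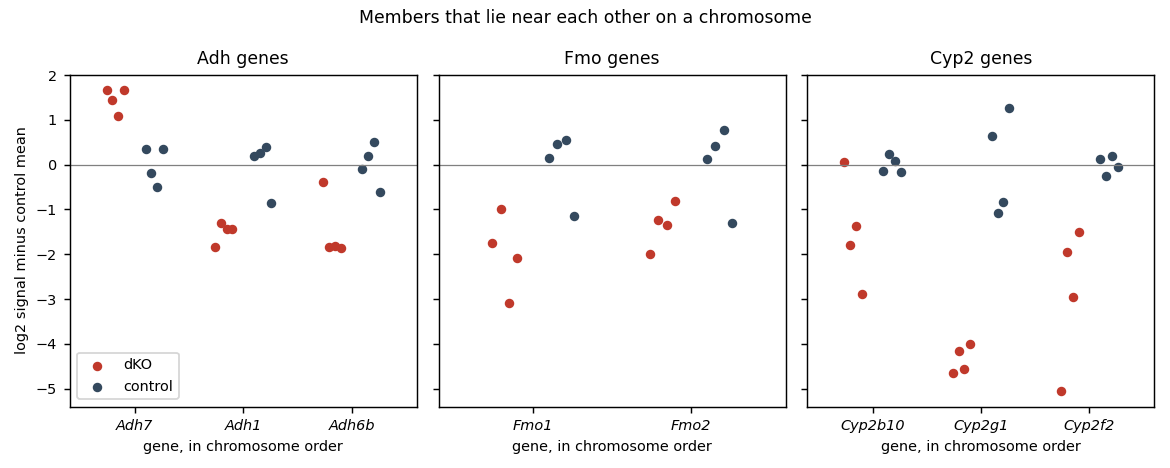
Log2 signal minus the mean of the controls for members near each other on a chromosome, with dKO left of control for each gene and 1 point per array. Adh7 lies above the controls and Adh1 and Adh6b below (log2 differences 1.47, -1.50 and -1.47), both Fmo genes are lower with control replicate 4 among the dKO arrays, and the 3 Cyp2 genes are lower apart from dKO replicate 1 of Cyp2b10.

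Further dehydrogenases and reductases of aldehydes, retinal among them, had these values. Aldh1a1, which makes retinoic acid from retinal, read 8.7, 14.3, 15.9 and 18.6 units in dKO replicates 1 to 4, against 59.5, 52.6, 55.4 and 21.6 units in control replicates 1 to 4. The groups did not overlap, yet the gene was dim and its log2 difference of -1.67 (SE 0.47) became -0.75 with the offset. Dhrs4, a carbonyl reductase that can reduce retinal, read 436, 342, 387 and 354 units in dKO replicates 1 to 4, against 586, 560.3, 587 and 649 units in control replicates 1 to 4, groups that were tight and separate (log2 difference -0.65, SE 0.12). Dhrs3, which reduces retinal to retinol, read 157 to 340.3 units in dKO and 359 to 405.5 units in controls. Aldh3a1, an aldehyde dehydrogenase abundant in cornea, was dim, at 13.8 to 24.6 units in dKO and 34.1 to 72.9 units in controls.

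Steroid-converting members lay on both sides of control. Akr1c18, which inactivates progesterone, read 74.5, 217, 51.7 and 111 units in dKO replicates 1 to 4, against 14.3, 31.0, 34.8 and 45.9 units in control replicates 1 to 4. Both groups were scattered, the lowest dKO array lay just above the highest control, and the log2 difference of 1.76 (SE 0.46) was 1.10 with the offset. Akr1d1, a steroid reductase of bile acid synthesis, read 68.0 to 125 units in dKO and 168 to 203 units in controls, a log2 difference of -1.02 (SE 0.20), and its dimmer probe set overlapped between groups at -0.70 (SE 0.23).

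Hsd11b2, which inactivates glucocorticoids, read 32.4, 42.4, 42.7 and 29.5 units in dKO replicates 1 to 4, against 135, 69.0, 28.2 and 82.9 units in control replicates 1 to 4. Control replicate 3 was below every dKO array, so the groups overlapped in spite of a log2 difference of -0.91 (SE 0.42). Hsd17b14 and Hsdl1, placed here by name alone, also overlapped, with log2 differences of -0.68 (SE 0.25) and -0.54 (SE 0.15). On the value table Hsdl1 differed 1.45-fold, Gpx7 1.46-fold and Dhrs3 just under 1.5-fold, less than the limit of the authors' deposited table, whose ratios rest on a normalization not given in the sources used here.

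All 4 glutathione S-transferases among the members were lower in dKO. Gsta2, of the alpha class, read 190.4, 882, 787 and 689 units in dKO replicates 1 to 4, against 2571, 2365, 2392 and 1705 units in control replicates 1 to 4. The groups did not overlap, and dKO replicate 1 was 4.63-fold below the highest dKO array. Its log2 difference was -2.02 (SE 0.38), and near-identical alpha-class genes could share its probes.

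Gstm2 of the mu class read 416 to 564 units in dKO and 666 to 859 units in controls, a log2 difference of -0.61 (SE 0.13). Gstk1 of the kappa class, found in mitochondria and peroxisomes, read 171 to 441 units in dKO and 412 to 594 units in controls. Gstt3 of the theta class read 13.5 to 58.1 units in dKO and 55.0 to 140.0 units in controls, and both Gstk1 (-0.78, SE 0.24) and Gstt3 (-1.12, SE 0.46) overlapped between groups. On all 4 transferases dKO replicate 1 was the lowest dKO array and control replicate 4 the lowest control.

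Both epoxide hydrolases among the members were higher in dKO. Ephx1, the microsomal enzyme that opens epoxides left by P450 reactions, read 683, 847.5, 669 and 958 units in dKO replicates 1 to 4, against 523, 427, 467 and 524 units in control replicates 1 to 4. Ephx3, which acts on epoxides of linoleate in skin, read 1149 to 2073 units in dKO and 745 to 1085 units in controls. Neither overlapped between groups, and the log2 differences were 0.69 (SE 0.14) for Ephx1 and 0.64 (SE 0.18) for Ephx3.

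Among the 4 members grouped by name as peroxide and thiol enzymes, Cat was lower and 3 were higher. By the brightest probe set of each gene 0 passed the limma threshold, though the dimmer Cat probe set did. Cat, the peroxisomal catalase, read 839.8, 1520.0, 1161 and 1928 units in dKO replicates 1 to 4, against 2396.5, 1938, 2039.8 and 3530.5 units in control replicates 1 to 4. The highest dKO array lay just below the lowest control, so the groups were barely apart, with log2 differences of -0.89 (SE 0.24) and -0.98 (SE 0.22) in the 2 probe sets.

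Gpx3, the secreted glutathione peroxidase, read 100, 30.7, 79.8 and 9.7 units in dKO replicates 1 to 4, against 9.4, 39.9, 6.4 and 6.1 units in control replicates 1 to 4. Both groups were scattered and overlapped, and the log2 difference of 1.84 (SE 0.80) was 0.79 with the offset. Txndc9, a protein with a thioredoxin domain, read 180.4, 129.9, 137 and 107 units in dKO replicates 1 to 4, against 92.1, 69.1, 60.4 and 93.2 units in control replicates 1 to 4, without overlap (log2 difference 0.81, SE 0.23). Gpx7, a glutathione peroxidase of the endoplasmic reticulum, overlapped between groups at 84.9 to 149 units in dKO and 49.1 to 117.5 units in controls.

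Car6, a carbonic anhydrase that salivary glands secrete, was the single carbonic anhydrase among the members. It read 43.4, 160.3, 94.1 and 247 units in dKO replicates 1 to 4, against 1528, 618, 815 and 832 units in control replicates 1 to 4. Every dKO array lay far below every control, and the log2 difference was -2.99 (SE 0.44), or -2.63 with the offset.

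Single arrays stood out across the members, and dKO replicate 1 also had the lowest median signal of all arrays, 40.7 units. Of the 24 lower members, dKO replicate 1 was the lowest dKO array in 14, where it was the lowest in 36.0% of probe sets at or above the median level. Their median distance from the control mean was -1.56 on the log2 scale in dKO replicate 1, -0.98 in replicate 2, -1.31 in replicate 3 and -1.17 in replicate 4. For the 9 higher members it was 1.17 in dKO replicate 1, 0.81 in replicate 2, 0.79 in replicate 3 and 0.52 in replicate 4. Control replicate 4 was the lowest control in 12 of the 24 lower members, among them Adh1, Aldh1a1, both Fmo genes and all 4 transferases, against 29.2% of those probe sets.

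A second control pattern set replicates 1 and 4 above 2 and 3. It was seen in 8 of the 24 lower members (Cyp17a1, Cyp1a1, Cyp2g1, Akr1d1, Aldh3a1, Hsd11b2, Cat and Car6), in 5 of the 9 higher members (Cyp26b1, Cyp51, Adh7, Ephx1 and Txndc9) and in 21.0% of probe sets at or above the median level. Markers of sebocytes showed the same order, with 7 of 14 named, a summed signal of 6499, 3012, 3124 and 8389 units in control replicates 1 to 4 and 1240.1 to 1743 units in dKO. Hair shaft and inner root sheath markers did as well, with 12 of 20 named, 21693, 7275, 5850 and 32405 units in control replicates 1 to 4 and 1419 to 5314 units in dKO. Most of the sebocyte sum in dKO came from Mgst1, at 826 to 1294 units, against 1451 to 3248 units in controls. It was the 1 of those 7 that did not pass the limma threshold (log2 difference -0.97, SE 0.25). The named markers of both lists had been chosen by the filter on dKO against control, so nothing is read from their lower signal in dKO. No named marker of either list was at 0, and their part in the differences of the members was not tested. In whole epidermis fewer cells of a type and less RNA per cell cannot be told apart.

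**Figure D4:**
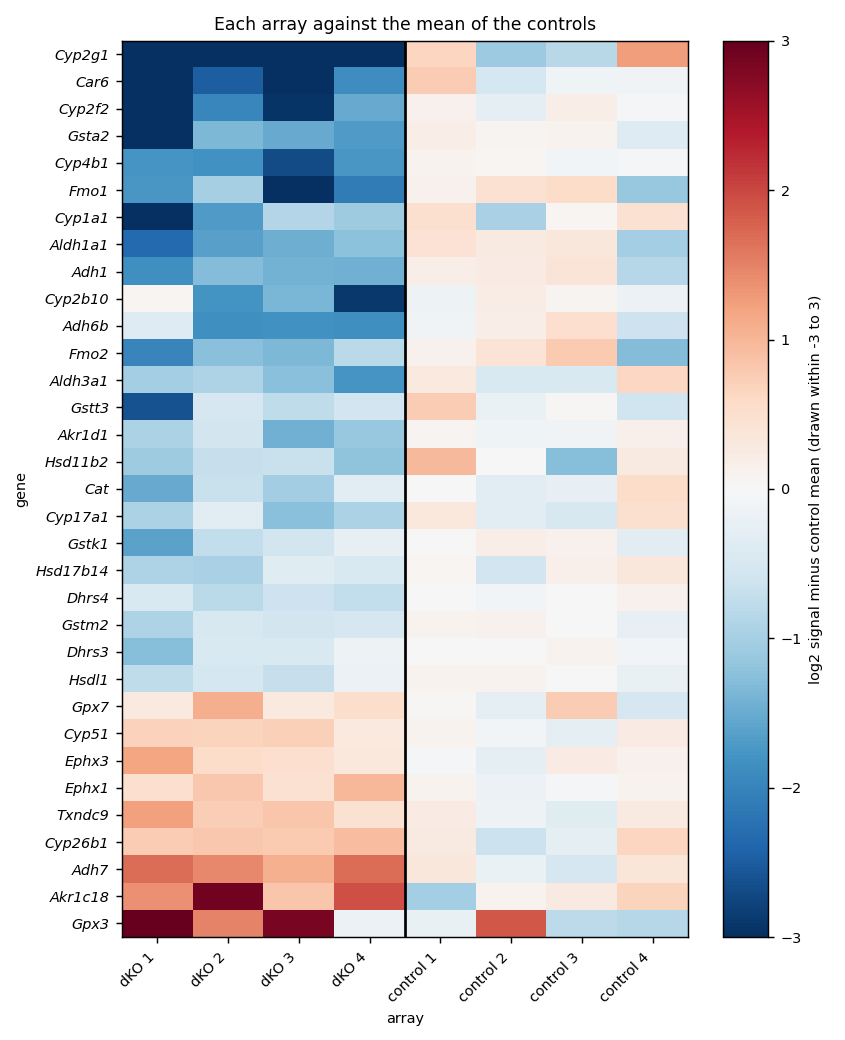
Log2 signal minus the mean of the 4 controls for each of the 33 genes (rows, from the lowest to the highest difference) and each array (columns, dKO left of the line), with values beyond 3 or -3 drawn at that limit. In dKO the 24 lower genes are mainly blue and the 9 higher ones mainly red. Exceptions are dKO replicate 1 of Cyp2b10, slightly above the control mean, and dKO replicate 4 of Gpx3, slightly below it. Among the 24, dKO replicate 1 is the lowest dKO array in 14.

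Other marker lists were likewise seen only through genes that the same filter on dKO against control had chosen. Markers outside it have no name here. Of the 1363 named genes that are not members, 42.1% passed the limma threshold, and nothing is read from the direction of a list. Markers of activated keratinocytes, with 12 of 12 named, summed to 48890 to 113270 units in dKO and 3197 to 16615 units in controls, highest among controls in replicate 4 and lowest in dKO in replicate 4. Myeloid and Langerhans cell markers, with 7 of 13 named, summed to 443 to 1696 units in dKO and 2221 to 3538 units in controls, lowest in dKO in replicate 1. T cell markers (3 of 5 named) summed to 86.0 to 229 units in dKO and 418 to 537 units in controls. Most of that sum came from Coro1a, at 68.9 to 188 units in dKO and 237 to 390 units in controls. Cd3d read 2.9 to 5.4 units in dKO and 40.7 to 87.6 units in controls. Cd3g read 13.8 to 36.6 units in dKO and 90.1 to 141 units in controls. Red cell markers (2 of 6) summed to 164 to 456 units in dKO and 43.3 to 70.6 units in controls. Of these, Alas2 passed the threshold. Slc4a1 overlapped between groups, at 36.1 to 83.9 units in dKO and 6.4 to 50.5 units in controls, and did not pass. Fibroblast markers (4 of 10) summed to 2441 to 3991 units in dKO and 1516 to 2147 units in controls. Most of the fibroblast sum came from Sparc, the 1 of the 4 that passed the threshold, while Fap ran the other way (log2 difference -1.39). The single named melanocyte marker of 5 read 629 to 1237 units in dKO and 337 to 809.8 units in controls, and the single adipocyte marker of 5 read 10.2 to 45.1 units in dKO and 18.3 to 247 units in controls. None of these markers was at 0, and their part in the members' differences was not tested.

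Regulators and partners of these enzymes were named for 10 of 52 listed genes, which the same filter had chosen on the authors' own ratios. Of the 10, 4 passed the limma threshold as higher, 1 as lower and 5 did not pass, with a median log2 difference of 1.31. Of the 1363 named genes that are not members, 42.1% passed, beside 2.25% of all probe sets. Nothing is read from the count or the median, since most of the listed genes have no name here. Nfe2l2, the NRF2 transcription factor of the antioxidant response, read 138 to 199 units in dKO and 45.5 to 112.9 units in controls, a log2 difference of 1.33 (SE 0.28). Tiparp, a target of the aryl hydrocarbon receptor, read 842 to 2325 units in dKO and 369 to 692 units in controls. Its log2 difference was 1.63 (SE 0.28). Cyp1a1, a target of the same receptor, was lower at -1.86, or -0.76 with the offset. Cyp1a1 was dim, overlapped between groups and did not pass, and activity of the receptor was not tested. Abcg2, an efflux pump, was higher by 0.77 (SE 0.17).

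Mt4, a metallothionein of stratified epithelia, was the 1 that passed as lower, at 37.7 to 123 units in dKO and 418 to 1159 units in controls (log2 difference -3.28, SE 0.37). Among those that did not pass, Srxn1, which restores oxidised peroxiredoxins, had a log2 difference of 1.29 (SE 0.32), Slc7a11, a cystine transporter, 1.76 (SE 0.58), and Papss2, which makes the donor for sulfation, 2.29 (SE 0.55). Ggt1, which breaks down glutathione outside cells, stood at -0.88 (SE 0.41), and Abcc3, an efflux pump, at -0.14 (SE 0.24). Abcc3 read 81.0 to 145 units in dKO and 93.0 to 166.5 units in controls, and the groups overlapped. On the value table Abcc3 therefore lay far short of the fold limit of the authors' deposited table, although that table lists it. The reason for this mismatch was not tested.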

How the data were processed

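The authors deposited linear intensity values, 1 for each probe set on each array. Per the submitters' processing notes the tools were MAS5 and Partek, whose roles and versions are not given in the sources used here. In every column the mean after trimming 2% at either end came to 250. Per the file headers, the authors also deposited a table with a ratio of knockout over control and an unadjusted p-value. It was used here for gene names and to state its own limits. Left out of 45101 probe sets were 64 controls and 5 that read 0 on an array.

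Log2 intensities of the remaining 45032 were compared between 4 dKO and 4 control arrays with limma 3.58.1 in R 4.3.3 (lmFit, eBayes with trend), adjusted by Benjamini-Hochberg over all of them. The procedure was tested on simulated data. A gene is represented by its listed probe set with the highest mean. Genes given array by array had no overlap, a level at or above the median and a difference of at least 1 with 32 added, or were the largest of their family. The members and lists were chosen with earlier results of these data known. No protein sequences were used here, and 1 of the listed partner genes is not reported here. Array number limits precision.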

Additional observations from a re-analysis of the deposited data

Results flagged for a closer look

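In each member and group of 4 arrays, an array was noted when its gap to the nearest other array took up most of the group's log2 range (Dixon's test). Of 66 such groups 8 held one. The limit is passed by about 1 in 20 groups of independent normal values. These groups share the same 8 arrays, so they are not independent and no excess is read from the count. In 4 of them dKO replicate 1 stood apart, as the lowest dKO array for Gsta2 (190.4 units), Gstm2 (416.1 units) and Gstt3 (13.5 units) and as the highest for Adh6b (443.6 units). Control replicate 4 was the lowest control for Adh1 (2503.9 units) and Aldh1a1 (21.6 units). The lowest dKO array was replicate 3 for Cyp4b1 (91.2 units) and replicate 4 for Cyp51 (1218.1 units).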

How the results depend on the processing

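The 33 differences kept their sign under every alternative run on them, and with 32 added 4 of them (Cyp1a1, Cyp2g1, Aldh1a1 and Aldh3a1) moved by more than the spread between arrays. Without the intensity trend 60 of 45032 probe sets passed in place of 1012 (limma, Benjamini-Hochberg), among them 2 lower and 0 higher members, where 22 and 7 had an unadjusted p under 0.05. Leaving out 1 array gave 353 to 1417 probe sets, 4 to 12 lower members and 1 to 4 higher members. For dKO replicates 2 and 3 left out these were 508 and 438 probe sets, and for control replicates 1, 2 and 3 they were 353, 431 and 529. Of the 14 members past the threshold, 5 were past it in all 8 of these fits. Centring each array on its median moved the median difference by 0.125 and gave 6 lower and 4 higher members, against 11 and 3, and 322 lower and 607 higher probe sets, against 565 and 447. Quantile normalization gave 465 lower and 470 higher probe sets. Without both arrays numbered 4, chosen after seeing the data, 1525 probe sets passed, with 15 lower and 4 higher members. With the replicate number as a block, 698 probe sets, 10 lower and 2 higher members passed. The numbers were not taken to pair arrays, since deviations of same-numbered arrays correlated at -0.0879 to 0.0433 and 1 of 8 arrays correlated best with their own number. The cause of these changes was not tested. Signals have no detection call here, so dim members are the least certain.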
